A study of Mus musculus with 14 samples.

Results

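The mitochondrial biogenesis regulators are the nuclear genes that set how much mitochondrial machinery a cell makes. The 8 genes followed here were Ppargc1a, Ppargc1b, Nrf1, Gabpa, Esrra, Ppara, Ppard and Tfam, and their transcripts were measured in satellite cells, the stem cells that lie beneath the basal lamina of muscle fibres. Every non-control probe that carried the name of one of these 8 genes was taken, each on its own, which gave 16 of the 55681 non-control probes on the array. The array carried 36406 gene names in all. All 16 probes passed the filter on dim probes, which asked for a signal clear of background on 2 or more arrays within some group.

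Cells were sorted from dissociated mouse muscle by flow cytometry, with integrin alpha 7 and CD34 as positive markers and CD31, CD45, CD11b and Sca1 as negative markers, and their amplified RNA was hybridised to 14 Agilent 1-colour arrays. The C57BL/6 mice formed 3 age groups. Young mice (n = 3) were 2 to 3 months old, Old mice (n = 3) 22 to 24 months, and Geriatric mice (n = 2) 29 and 30 months. The other 6 arrays were 12-month-old mice of the senescence-accelerated-mouse strains, 3 from SAMR1, the senescence-resistant line used as the control, and 3 from SAMP8, the senescence-prone line. All mice were labelled male, and the labels name no transgene or treatment. They call the arrays of a group biological replicates without saying whether each came from 1 mouse or from a pool. The level of a probe is given throughout as log2 of its processed signal minus the 75th percentile of its own array, so a level of 0 is a probe at that percentile, and levels are compared between arrays and are not amounts that can be set against those of another probe.

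PGC-1alpha and PGC-1beta, the products of Ppargc1a and Ppargc1b, are coactivators: they bind no DNA themselves and act through transcription factors on nuclear genes of mitochondrial proteins. Their partners include NRF1, the ETS-family factor GABP (whose DNA-binding subunit is made by Gabpa), the estrogen-related receptor alpha (Esrra) and the fatty-acid-sensing receptors PPARalpha and PPARdelta (Ppara, Ppard). TFAM, encoded by a nuclear target gene of NRF1 and GABP, enters the mitochondrion, packages its DNA and starts its transcription. Quiescent satellite cells hold few mitochondria compared with the fibres around them, and their mitochondrial content is known to grow upon activation.

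The sequences below show promoter windows of 3 members, searched for the letters of known binding motifs, and 2 of the probes that the array reads. The windows are the 250 bases before the annotated gene start, 5′ to 3′ along the gene, from the RefSeq promoter table of build GRCm38.p6. The table held 8 windows for 7 of the members, with 2 for Nrf1, and the 3 printed belong to the gene that changed with age and to a pair of members whose windows hold a binding motif of another member. Both strands were searched for GCGCATGC (the core of the NRF1 motif), CCGGAAGT (GABP), AAGGTCA (the estrogen-related receptor site), TGACGTCA (the cyclic AMP response element bound by CREB) and its shorter form TGACG, which the full element contains. Capitals mark the match.
Ppargc1a, chr5:51567726-51567975, minus strand, capitals at a TGACG on the reverse strand: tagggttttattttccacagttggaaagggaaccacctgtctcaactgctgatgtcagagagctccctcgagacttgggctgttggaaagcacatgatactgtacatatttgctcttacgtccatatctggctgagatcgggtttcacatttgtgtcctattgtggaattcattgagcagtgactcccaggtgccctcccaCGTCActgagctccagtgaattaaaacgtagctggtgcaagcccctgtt
Esrra, chr19:6921809-6922058, minus strand, capitals at GCGCATGC on the reverse strand: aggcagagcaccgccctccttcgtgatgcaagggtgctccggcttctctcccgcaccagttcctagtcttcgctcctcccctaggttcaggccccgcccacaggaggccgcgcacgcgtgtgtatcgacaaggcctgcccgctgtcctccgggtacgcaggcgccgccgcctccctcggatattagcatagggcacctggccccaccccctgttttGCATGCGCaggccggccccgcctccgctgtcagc
Tfam, chr10:71238045-71238294, minus strand, capitals at CCGGAAGT: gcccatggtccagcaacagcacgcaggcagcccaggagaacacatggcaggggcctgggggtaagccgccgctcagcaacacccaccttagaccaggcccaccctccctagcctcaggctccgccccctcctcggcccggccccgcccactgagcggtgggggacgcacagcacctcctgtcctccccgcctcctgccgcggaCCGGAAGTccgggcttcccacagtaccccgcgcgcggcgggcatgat

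The Ppargc1a window held no full TGACGTCA and 1 match to TGACG, beginning 49 bases before the start, and TGACG was found in 17.8% of all 32851 windows of this length. The NRF1 core began 34 bases before the Esrra start and 31 bases before that of Ppara, where 2 copies overlapped, and it occurred in 2.26% of all windows. The GABP motif, held by 2.88% of all windows, began 47 bases before the Tfam start. No member window held AAGGTCA, which 4.08% of windows held, or TGACGTCA, which 1.55% held. A match of letters describes the sequence and does not show that a factor binds there.

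The probes are 60-base oligonucleotides, and their genome positions come from the deposited files, in build mm9. Exon and coding annotation of that build was not used here, so a probe is placed by the base of its transcript at which it starts. The 2 shown are an Nrf1 and a Gabpa probe, because other probes of the same genes gave other values.
Nrf1 A_52_P376269, chr6:30066141-30066200, plus strand, from transcript base 1101: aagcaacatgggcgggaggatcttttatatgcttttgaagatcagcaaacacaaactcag
Gabpa A_51_P364984, chr16:84860691-84860750, plus strand, from transcript base 1653: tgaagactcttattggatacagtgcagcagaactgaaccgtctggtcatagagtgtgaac

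The arrays were alike in some measures of quality and not in others. The median of signal over background was 6.099 to 6.65 on the Young and Old arrays and 6.36 to 7.14 on SAMP8. It was 7.83 and 8.001 on the Geriatric arrays and 7.798 to 8.299 on SAMR1, without overlap with Young or Old. The part of this difference in the comparisons was not tested. Between 77.2% and 88.7% of spots were well above background on each array, no spot was saturated, and 94 to 255 spots per array were dropped as outliers except on Geriatric 1, which lost 969. Arrays of the same group correlated at r = 0.936 to 0.970 (13 pairs) and arrays of different groups at 0.833 to 0.955 (78 pairs). Pax7, the defining transcription factor of satellite cells, was well above background on all 14 arrays, with group means of 4.23 in Young, 3.54 in Old, 4.11 in Geriatric, 3.62 in SAMR1 and 3.68 in SAMP8. Sex-linked transcripts divided the arrays against their labels: Xist lay at 5.08 to 5.86 on the 6 Young and Old arrays and at -8.15 to -3.52 on the other 8, while Ddx3y, Uty and Kdm5d, from the Y chromosome, were well above background on 0 of those 6 and on 8 of the other 8. Every comparison of Geriatric with Young or Old therefore crosses this division, and age and the division cannot be told apart in it. Old versus Young and SAMP8 versus SAMR1 do not cross it.

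Ppargc1a was the member that differed most between groups. The probe A_51_P279038 (chr5:51848928-51848987 in mm9, minus strand, from transcript base 2964) had levels of -1.48, -1.58 and -0.83 on the 3 Young arrays. The Old arrays lay at 0.92, 0.71 and 0.50, and the Geriatric arrays at 1.06 and 0.98. In every Old and Geriatric array the transcript was thus above every Young array, with a gap of more than 1 log2 unit between the nearest values. SAMR1 gave 0.74, 0.81 and 1.04, and SAMP8 gave 1.87, 1.95 and 1.67, so that the SAMP8 arrays were above all the others.

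Ppargc1a rose 4.01-fold from Young to Old, a log2 change of 2.00 ± 0.23 (SE, n = 3 and 3; 95% interval 1.51 to 2.50; limma, adjusted p = 0.00278). From Young to Geriatric it rose 4.98-fold, by 2.32 ± 0.25 (n = 3 and 2; interval 1.76 to 2.87; adjusted p = 0.000764). These 2 comparisons share the Young arrays and are not independent of each other. Geriatric and Old differed by 0.31 (interval -0.24 to 0.86; adjusted p = 0.403), although their arrays did not overlap. SAMP8 was 0.97 ± 0.23 above SAMR1, also without overlap, and this did not pass the test over all probes (unadjusted p = 0.00119, adjusted p = 0.141). The change from Young to Geriatric minus that from SAMR1 to SAMP8 was 1.35 ± 0.34. In limma this missed the threshold with an adjusted p of 0.0825 and passed it at 0.0403 without Young replicate 3. Geriatric versus Young crosses the division of the arrays by Xist, and age cannot be told apart from that division in it.

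The group means of this probe ran from Young (-1.30 ± 0.41, SD) through Old (0.71 ± 0.21), SAMR1 (0.86 ± 0.15) and Geriatric (1.02 ± 0.05) to SAMP8 (1.83 ± 0.14). Old overlapped SAMR1 and SAMR1 overlapped Geriatric, so these neighbours did not differ beyond their spread, whereas Young and SAMP8 each stood clear of the next group. Differences between groups made up 96.9% of the variance of the probe over the 14 arrays, compared with 8.84% to 75.3% for the other 15 member probes. Within the first slide of arrays, which held 2 Young arrays and 1 Old array, the difference between Old and Young was 1.86 (adjusted p = 0.255). Within the second, which held 1 Young array, 2 Old arrays and 2 Geriatric arrays, it was 2.29 (0.227), and that between Geriatric and Young was 2.597 (0.138). Each of these comparisons has 1 array on one side, which the fit takes to vary like the other groups, and none passed the threshold. When the fit was limited to the groups compared, the adjusted p was 0.0788 for Old versus Young and 0.0503 for Geriatric versus Young.

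**Figure D1:**
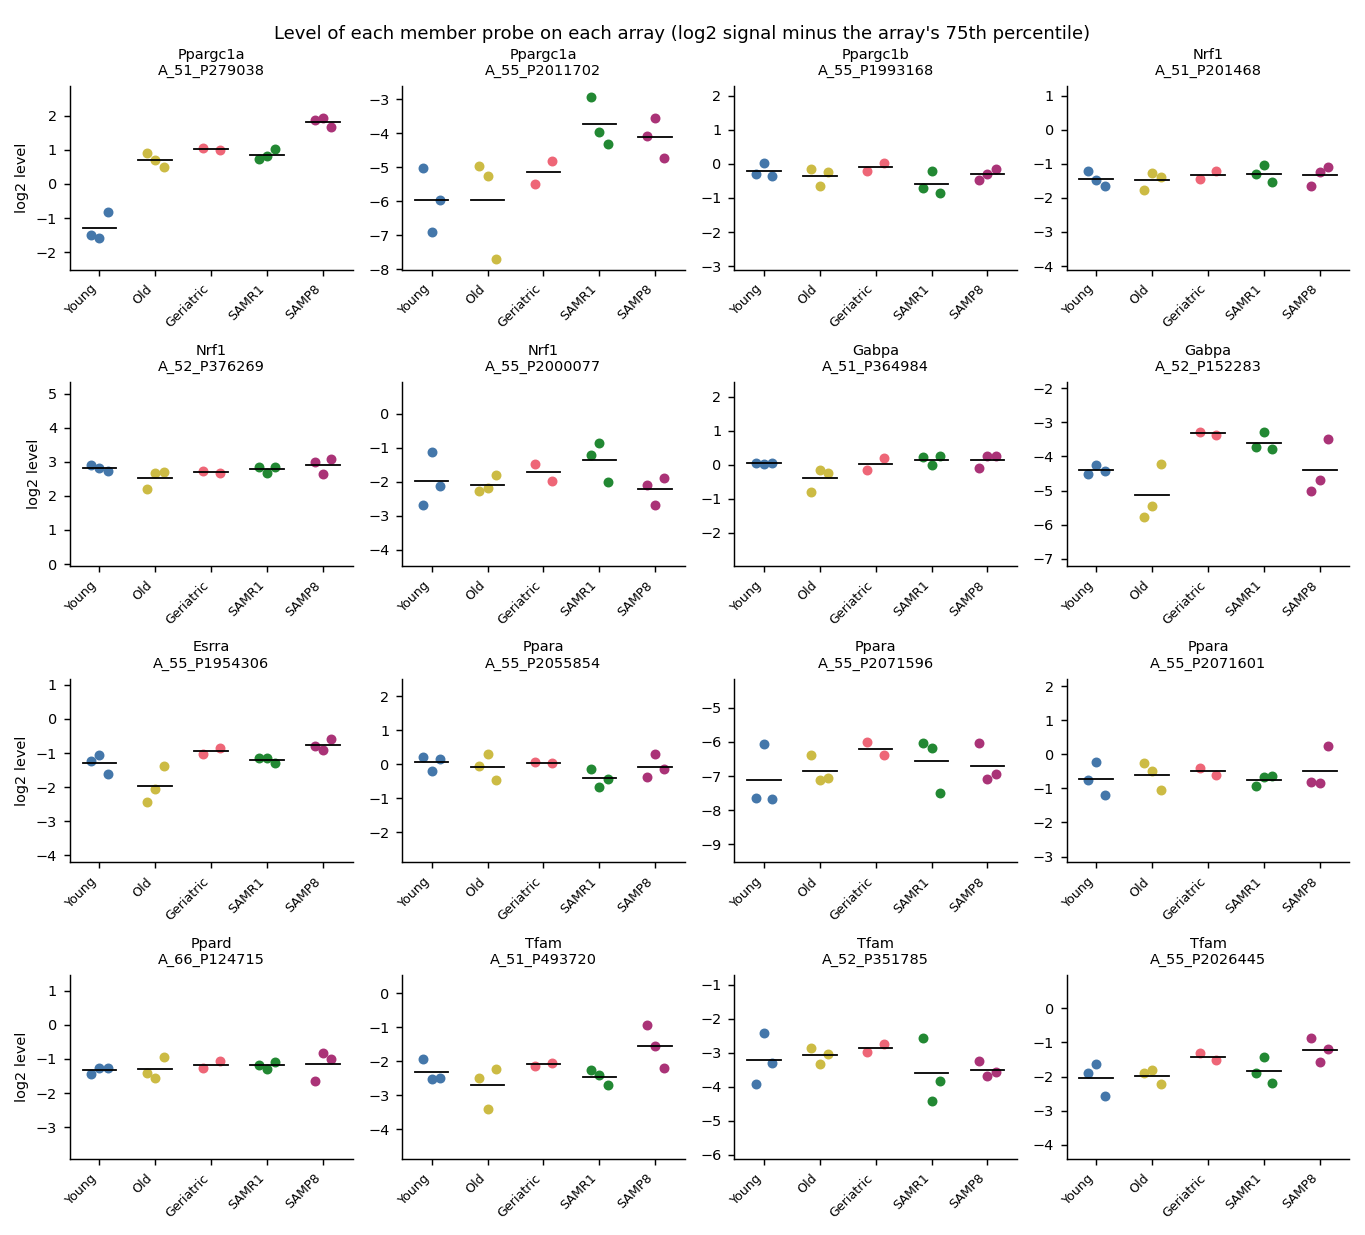
Level of each of the 16 member probes on each of the 14 arrays (y axis, log2 signal minus the 75th percentile of the array, all panels spanning the same number of log2 units) by group (x axis), with points for arrays and a bar for the group mean. Ppargc1a A_51_P279038 shows 3 Young arrays between -1.58 and -0.83 and all other arrays at 0.50 or higher, while Ppard, Ppargc1b and Nrf1 A_51_P201468 stay within 0.89 log2 units over all arrays.

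The second Ppargc1a probe did not show this change. A_55_P2011702 (chr5:51846926-51846985, minus strand, from transcript base 4966) was well above background on 10 of 14 arrays, and on only 1 of 3 Young and 1 of 3 Old arrays. Its levels were -5.02, -6.91 and -5.95 in Young, -4.97, -5.24 and -7.68 in Old, -5.49 and -4.81 in Geriatric, -2.93, -3.98 and -4.32 in SAMR1, and -4.08, -3.56 and -4.73 in SAMP8. The Old and Young arrays overlapped, with a difference of -0.01 whose interval of -1.56 to 1.55 includes both no change and a change of more than 1 log2 unit in either direction. Geriatric differed from Young by 0.81 (interval -0.93 to 2.54; adjusted p = 0.590). On this probe SAMP8 and SAMR1 overlapped and differed by -0.38 (interval -1.93 to 1.17; limma, adjusted p = 0.969), whereas A_51_P279038 gave 0.97. It was well above background on 3 of 3 SAMR1 and 3 of 3 SAMP8 arrays, so the higher level in SAMP8 was seen with 1 of the 2 probes. The rise of Ppargc1a with age thus rests on 1 probe, and the other is too dim in the young and old cells to measure it.

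Ppargc1b, the gene of the related coactivator PGC-1beta, lay close to the same level in every group. Its single probe A_55_P1993168, on chromosome 18, ranged from -0.35 to 0.02 in Young, -0.65 to -0.15 in Old, -0.21 to 0.04 in Geriatric, -0.85 to -0.19 in SAMR1 and -0.47 to -0.15 in SAMP8. All 5 ranges overlapped. The differences were -0.14 for Old versus Young, 0.12 for Geriatric versus Young, 0.26 for Geriatric versus Old and 0.28 for SAMP8 versus SAMR1, with adjusted p-values of 0.4996 or higher and 95% intervals that all stayed between -0.64 and 0.82.

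Nrf1, which encodes the DNA-binding factor that PGC-1alpha coactivates on respiratory genes, passed the test in no comparison with any of its 3 probes (lowest adjusted p = 0.501). A_52_P376269 read 2.90, 2.81 and 2.74 in Young against 2.21, 2.67 and 2.69 in Old. The Old arrays were below the Young ones without overlap, by -0.29 (interval -0.72 to 0.14), and Old 1 lay furthest down. The same probe read 2.74 and 2.68 in Geriatric and 2.64 to 3.08 in the SAM strains. A_51_P201468 ranged from -1.77 to -1.04 over all arrays, with overlap between every pair of groups compared. A_55_P2000077, at -2.70 to -0.85, had the widest scatter of the 3, and its difference of -0.87 between SAMP8 and SAMR1 had an adjusted p of 0.611.

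Gabpa was measured by 2 probes that differed in outcome. A_51_P364984 read 0.06, 0.02 and 0.05 in Young and -0.81, -0.15 and -0.24 in Old. The Geriatric arrays were at -0.15 and 0.20, and the SAM arrays between -0.11 and 0.26. Old lay below Young without overlap, by -0.44 (interval -0.92 to 0.03; adjusted p = 0.337), and Geriatric above Old by 0.42 (adjusted p = 0.240). The other probe, A_52_P152283 (chr16:84863822-84863881, plus strand, from transcript base 4784), read -4.52, -4.25 and -4.41 in Young, -5.76, -5.44 and -4.21 in Old and -3.28 and -3.36 in Geriatric. It was well above background on 12 of 14 arrays and on 1 of 3 in Old, so the Old mean includes 2 values that background limits.

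With A_52_P152283, Gabpa rose from Old to Geriatric by 1.82 ± 0.49 (SE, n = 3 and 2; limma, adjusted p = 0.0260). The size of this change depended on how background was treated: it was 0.47 (adjusted p = 0.103) with normexp background correction and 0.89 (adjusted p = 0.0182) in the authors' deposited value table. It lost the call when Old 1, Old 2, Geriatric 1 or Geriatric 3 was left out, with adjusted p-values of 0.0836, 0.0771, 0.104 and 0.122. SAMR1 read -3.73, -3.27 and -3.79 on this probe and SAMP8 -5.02, -4.70 and -3.49, a difference of -0.81 (adjusted p = 0.677) with overlapping arrays.

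Esrra, whose product binds DNA as an orphan nuclear receptor and is itself a target of PGC-1alpha, was lowest in Old. The probe A_55_P1954306 (chr19:6985503-6985562 in mm9, minus strand) read -1.22, -1.06 and -1.61 in Young, -2.43, -2.06 and -1.39 in Old and -1.02 and -0.84 in Geriatric. Old 1 and Old 2 lay below every other array, and Old 3 lay within the Young range. From Old to Geriatric Esrra rose 2.04-fold, by 1.03 ± 0.29 on the log2 scale (n = 3 and 2; limma, adjusted p = 0.0327). The call was lost without Old 1 (0.79, adjusted p = 0.0971), Old 2 (0.98, 0.0860), Geriatric 1 (1.12, 0.0906) or Geriatric 3 (0.94, 0.182), and with the replicate number as a block (1.03, 0.0646). Old versus Young differed by -0.66 (unadjusted p = 0.0265, adjusted p = 0.233) and Geriatric versus Young by 0.37 (adjusted p = 0.497). SAMP8 read -0.78, -0.92 and -0.60 against -1.16, -1.15 and -1.29 in SAMR1, without overlap, a difference of 0.43 (adjusted p = 0.732).

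The PPAR genes, whose products switch on enzymes of fatty acid use, passed the test in no comparison. For Ppara, the probe A_55_P2055854 ranged from -0.67 to 0.31 and A_55_P2071601 from -1.18 to 0.23 over the 14 arrays, and each overlapped between all groups compared. The third Ppara probe, A_55_P2071596, was not well above background in the Young or the Old group and was so on 4 of 14 arrays in all, so no fold is given for it. Ppard (A_66_P124715) ranged from -1.64 to -0.82 and its differences lay between 0.02 and 0.15 in the 4 comparisons, with 95% intervals that all lay between -0.51 and 0.74.

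Tfam, the mitochondrial end of the cascade, passed the test with none of its 3 probes. A_51_P493720 read -1.94, -2.53 and -2.50 in Young, -2.48, -3.39 and -2.23 in Old, -2.13 and -2.04 in Geriatric, -2.26, -2.39 and -2.70 in SAMR1 and -0.93, -1.56 and -2.19 in SAMP8. All SAMP8 arrays lay above all SAMR1 arrays, by 0.89 on average (interval 0.10 to 1.68; unadjusted p = 0.0311, adjusted p = 0.515). A_55_P2026445 showed SAMP8 at -0.86, -1.59 and -1.19 and SAMR1 at -1.91, -1.42 and -2.20, which overlap, with a difference of 0.63 (adjusted p = 0.612). The third probe, A_52_P351785, differed by 0.11 between the strains (adjusted p = 0.985). Between Old and Young the 3 probes differed by -0.38, 0.06 and 0.14, with adjusted p-values of 0.668, 0.956 and 0.925, and between Geriatric and Young by 0.24, 0.62 and 0.35, with adjusted p-values of 0.768, 0.318 and 0.727. Between Geriatric and Old they differed by 0.615, 0.56 and 0.21 (limma, adjusted p = 0.302, 0.256 and 0.794). Geriatric lay above Old without overlap for the first 2 (53.2% of all probes did not overlap), and above Young for A_55_P2026445 (42.9%).

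**Figure D2:**
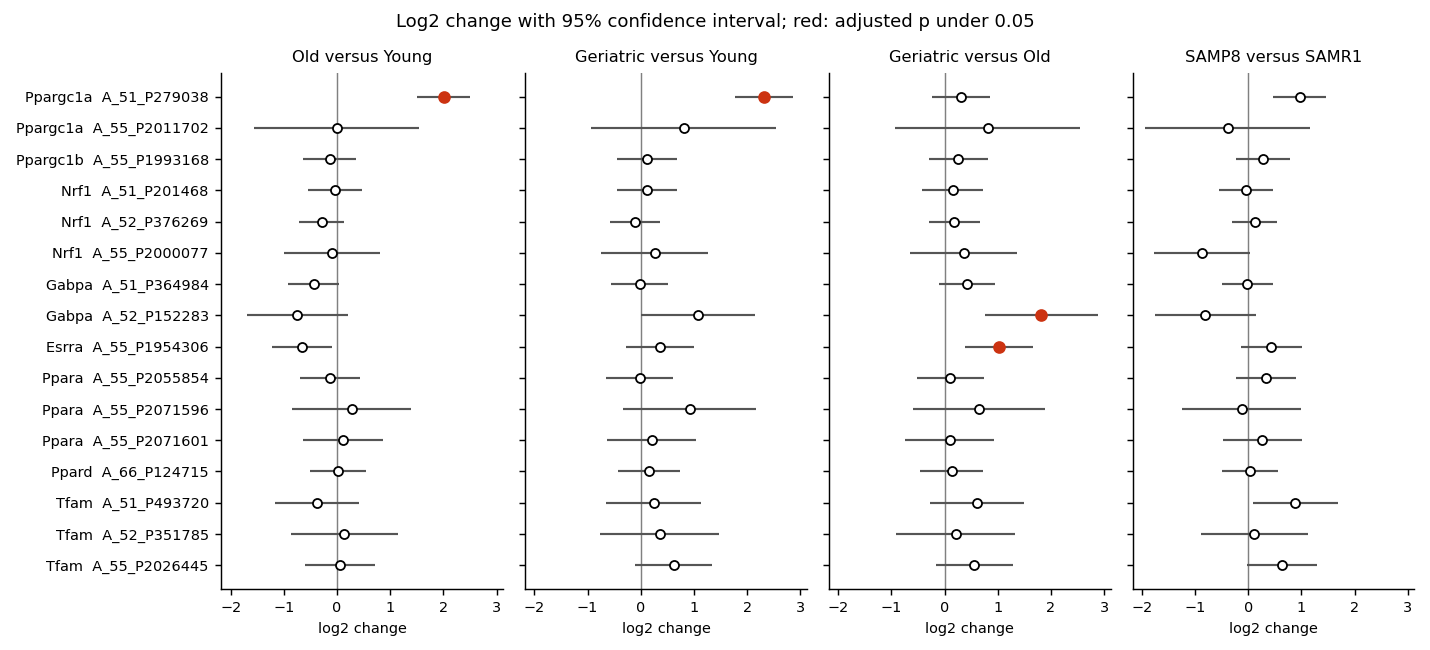
Log2 change of the 16 member probes (x axis) in the 4 comparisons, with 95% confidence intervals as lines and filled red points where the adjusted p was under 0.05. Ppargc1a A_51_P279038 passed in Old versus Young (2.00) and Geriatric versus Young (2.32), and Gabpa A_52_P152283 (1.82) and Esrra (1.03) passed in Geriatric versus Old.

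Counted over the members, 1 of 16 probes rose and 0 fell from Young to Old, where 1.24% of all 49930 probes tested passed in either direction and 1.03% rose, and 2 had an unadjusted p under 0.05 (16.5% of all probes). From Young to Geriatric 1 of 16 rose and 0 fell, against 3.54% of all probes (1.35% upward and 2.19% downward), and 2 had an unadjusted p under 0.05 (20.4% of all probes). From Old to Geriatric 2 of 16 rose and 0 fell, when 18% of all probes passed in either direction and 5.32% rose, and 2 had an unadjusted p under 0.05 (34.2% of all probes). No member passed between SAMP8 and SAMR1 in limma, where 0.421% of all probes did, and 2 of the 16 had an unadjusted p under 0.05, compared with 8.45% of all probes. In the difference between the age and strain contrasts 0 members passed, when 1.57% of all probes did, 0.513% upward. An unadjusted p under 0.05 was reached there by 2 of the 16 and by 7775 of all 49930 probes.

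Arrays of the groups did not overlap for 3 of the 16 member probes in Old versus Young (21.4% of all probes) and 5 of 16 in Geriatric versus Young (42.9%). They did not overlap for 5 of 16 in Geriatric versus Old (53.2%) and 3 of 16 in SAMP8 versus SAMR1 (13.1%). The median change of the members was -0.07 from Young to Old (all probes 0.07), 0.25 from Young to Geriatric (-0.13), 0.34 from Old to Geriatric (-0.18) and 0.12 from SAMR1 to SAMP8 (0.01). Over the 19009 genes with a symbol, each by 1 probe, the median was -0.007, -0.07, -0.03 and 0.003 in the same order. The member medians moved with the processing. From Young to Old the member median was -0.21 with quantile normalization, -0.28 with median scaling, -0.15 with the authors' values, 0.14 within the first slide and -0.40 within the second. From Young to Geriatric it was 0.11 with normexp background correction and within the second slide, and 0.40 without Young 2. From Old to Geriatric it was 0.20 with normexp, 0.51 with quantile normalization and 0.62 with median scaling, and from SAMR1 to SAMP8 it was 0.22 within the second slide. From Old to Geriatric all 16 changes were above 0, from 0.10 to 1.82, as they were with quantile normalization and the authors' values. Median scaling adds the same amount to every probe's change, here upward, so all 16 had to stay above 0 with it. With normexp background correction 14 were above 0, with slide as a block 15, without Geriatric 1 15 and without Old 3 13. Beyond Ppargc1a, Gabpa and Esrra these member changes did not pass the test one by one.

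**Figure D3:**
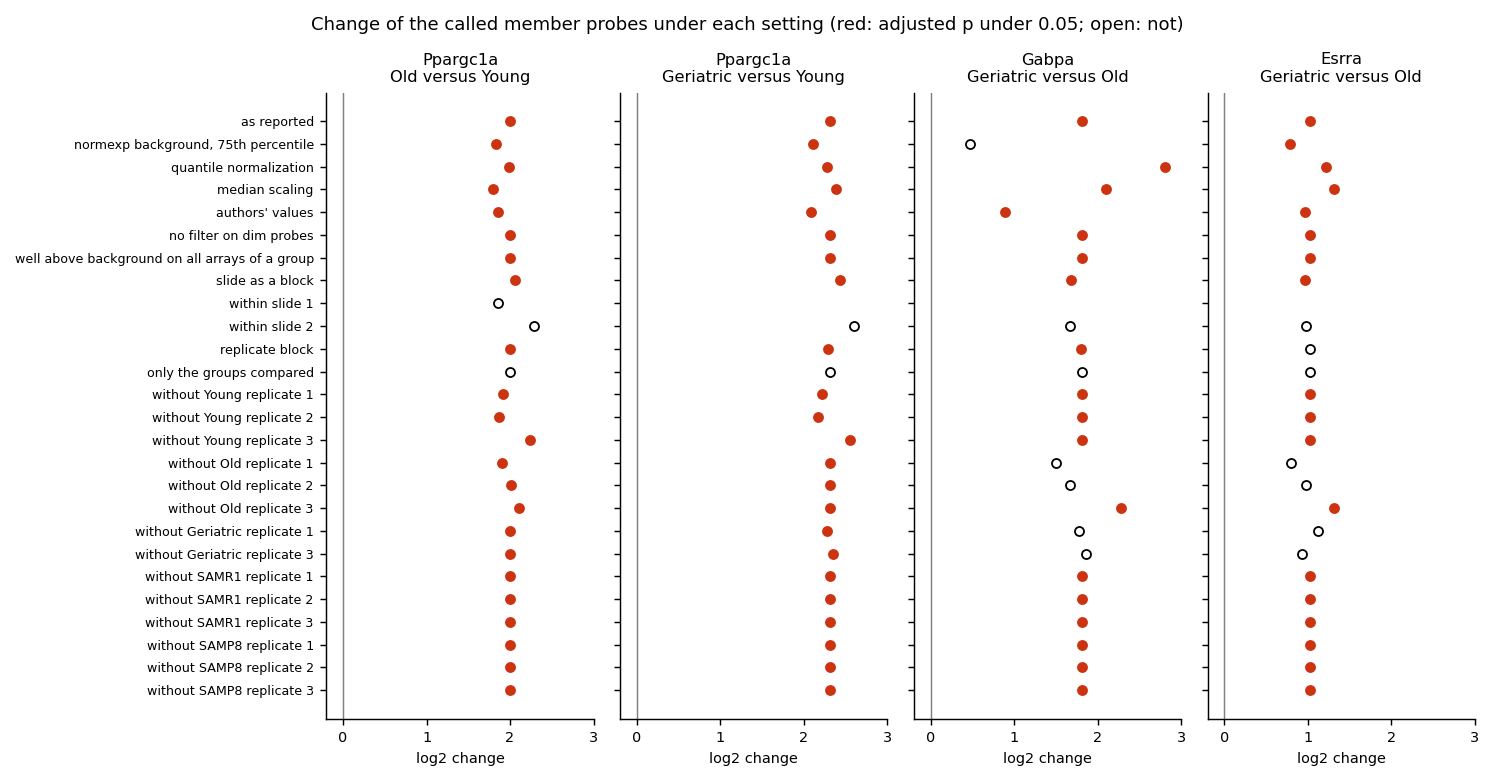
Log2 change (x axis) of the member probes that passed the test, under each processing setting (y axis), with red points where the adjusted p was under 0.05 and open points where it was not. Ppargc1a stays between 1.79 and 2.29 in Old versus Young and keeps its call whichever array is left out, while Gabpa runs from 0.47 to 2.81 and both it and Esrra lose the call in 7 of 24 settings.

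The wider pathway was read from 6 lists with 144 genes tested, each gene by 1 kept probe, the one with the highest mean level. From Young to Old, 1 of the 144 rose and 0 fell, when 1.29% of the 19009 genes with a symbol passed. That gene was Cox6b1, a subunit of cytochrome c oxidase, at 0.97 (adjusted p = 0.0487). It was past the threshold in 8 of 25 other settings and missed it in 17, including 11 of the 14 that leave out 1 array. From Young to Geriatric, 1 rose and 0 fell (3.73% of all genes passed): Acot1, an acyl-CoA thioesterase and PPARalpha target, by 1.73 (adjusted p = 0.00773), a call lost without Geriatric 3 (1.64). From SAMR1 to SAMP8, 0 of 144 passed in limma (0.405% of all genes), and 15 had an unadjusted p under 0.05 (8.45% of all probes). The smallest p belonged to Twnk, the mitochondrial DNA helicase, at -1.65 (adjusted p = 0.199).

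From Old to Geriatric, 14 of the 144 pathway genes rose and 3 fell, while 6.98% of all genes with a symbol rose and 10.7% fell, 17.7% in all. This count ran from 3 to 28 when 1 array was left out: it was 9 without Old 1 or Old 2, 28 without Old 3, and 3 without either Geriatric array. The median change over the 144 genes was 0.35 in this comparison (all genes with a symbol -0.03), and -0.22, 0.12 and -0.01 in Old versus Young, Geriatric versus Young and SAMP8 versus SAMR1. The comparison crosses the division of the arrays by Xist, whose part in the result was not tested. In it 2 of 16 satellite cell markers rose (Myf5 by 2.34, adjusted p = 0.00496, and Heyl by 1.29, 0.0137). The median of that list was 0.33 from Old to Geriatric, with 12 of 16 above 0. It was -0.29, -0.08 and -0.12 in Old versus Young, Geriatric versus Young and SAMP8 versus SAMR1. From Old to Geriatric 2 of 14 leukocyte markers changed downward (Cd14 by -1.44, 0.00343, and Lyz2 by -1.70, 0.0279). Of 18 muscle fibre markers 1 fell, Mylpf, a fast myosin light chain, which was not well above background in Geriatric and at least 2.95-fold lower there (adjusted p = 0.0219), and the list median was -0.54. Of 10 smooth muscle and pericyte markers 1 changed downward, Cnn1, calponin (-1.05, adjusted p = 0.0219). Of 10 mesenchymal and adipocyte markers Thy1 changed by -2.26 (0.0175) and Dpt by 1.05 (0.0372). The endothelial list had 0 of 12 past the threshold in limma and a median of -0.45. In it 1 had an unadjusted p under 0.05 (34.2% of all probes). The part of these cell types in the pathway counts was not tested.

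Among the upstream regulators of PGC-1alpha, 3 of 26 rose from Old to Geriatric and 0 fell. They were Mapk14, the p38alpha kinase that phosphorylates PGC-1alpha (0.99, adjusted p = 0.0136), Prkaa1, the catalytic alpha1 subunit of the energy sensor AMPK (1.28, 0.0376), and Ncor1, a nuclear receptor corepressor (0.67, 0.0361). Ncor1 opposes rather than promotes PPAR and estrogen-related receptor target genes. In limma 0 of these 26 genes passed from Young to Old or from Young to Geriatric, the 2 comparisons in which Ppargc1a rose. An unadjusted p under 0.05 was reached by 4 and 5 of them (16.5% and 20.4% of all probes), and the medians were -0.01 and 0.03. The smallest p in those comparisons belonged to Ncor1 at -0.49 (adjusted p = 0.192) and to Fnip1, a partner of the AMPK pathway, at 0.70 (adjusted p = 0.130).

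Of the 16 transcription factor partners, 1 rose from Old to Geriatric. Esrrg, which encodes the gamma member of the estrogen-related receptors, differed by 2.99 (adjusted p = 0.0169), but it was well above background on 1 of 3 Old arrays. Of 26 genes that transcribe and replicate mitochondrial DNA, 2 rose there: Mterf2, a mitochondrial transcription factor of the terminator family (2.04, adjusted p = 0.0272), and Polg2, the accessory subunit of the mitochondrial DNA polymerase (1.01, 0.0136).

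Of 37 nuclear-encoded respiratory and import genes, 2 rose and 1 fell from Old to Geriatric. Sdha, the catalytic subunit of succinate dehydrogenase, rose by 1.01 (adjusted p = 0.0188), Tomm70a, an import receptor of the outer membrane, rose by 1.37 (0.0384), and Cox6b1 fell by 1.04 (0.0116). In fusion and fission, 1 of 10 genes rose, Opa1, the inner-membrane fusion GTPase (1.26, 0.0330).

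PPAR target genes of fatty acid use had 5 of 29 higher and 2 lower in Geriatric than in Old. Lpl, lipoprotein lipase, rose by 1.44 (adjusted p = 0.00390) and Acot1 by 1.24 (0.0146), while Cyp4a10, a fatty acid hydroxylase, fell by 1.83 (0.0103). The others that passed were Hadha, Acaa2 and Acot2 upward, with Acot2 well above background on 1 of 3 Old arrays, and Cpt1b, the muscle form of the enzyme that admits fatty acids to the mitochondrion, downward. Acot1 and Acot2 are near-identical neighbours and Cyp4a10 has close relatives, so their probes may cross-hybridise. The change of Acot2 was 2.81, ran from 0.57 to 3.86 over the settings, and lost its call in 16 of 24 of them. Among all the pathway genes called from Old to Geriatric, Lpl kept its call whichever array was left out, and each of the others lost it for 1 to 11 of the 14 arrays. Acot1 was also the pathway gene whose age and strain effects differed, by 2.09 (adjusted p = 0.0222), a call lost for 5 of the 14 arrays left out. That test called 1.56% of all genes with a symbol, 0.637% with the age effect the higher.

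**Figure D4:**
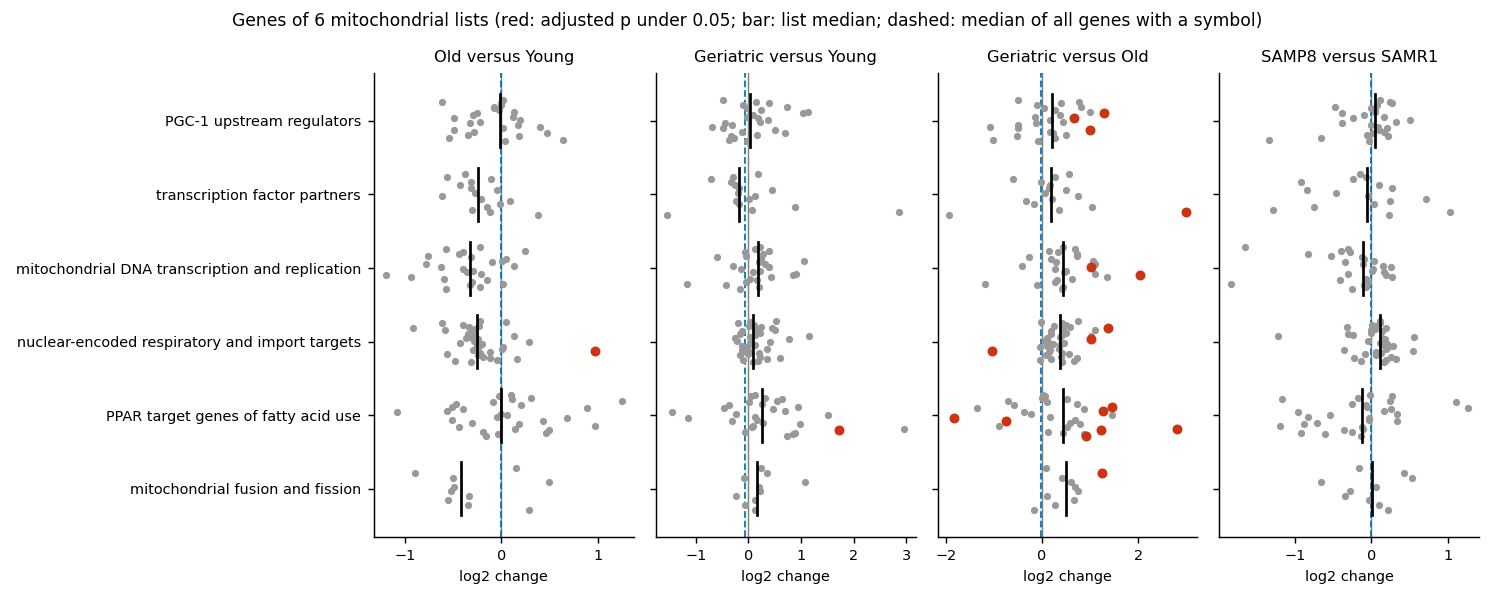
Log2 change (x axis) of each gene of the 6 mitochondrial lists (y axis) in the 4 comparisons, grey for genes that did not pass, red for an adjusted p under 0.05, a black bar at the list median and a dashed line at the median of all genes with a symbol. In Geriatric versus Old all 6 list medians lie above 0, from 0.20 to 0.50, and in Old versus Young all 6 lie at or below 0, from -0.42 to 0.00.

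Transcripts made in the mitochondrion itself were read from 6 probes, for ND1, ND2, ND4, ND5, COX1 and CYTB, a set chosen after the array's probes had been seen. All were well above background on 14 of 14 arrays, and 0 passed in any comparison in limma. They differed by -0.14 to 0.19 between Old and Young and by -0.43 to 0.04 between Geriatric and Young, the 2 comparisons in which Ppargc1a rose. Between Geriatric and Old all 6 were below 0, from -0.58 to -0.07. The median of all probes was 0.07, -0.13 and -0.18 in these 3 comparisons. With median scaling it was -0.15, -0.06 and 0.11, and the 6 changes were not recomputed with that scaling. That scaling shifts every change of a comparison by as much as it shifts this median. The signs of the smaller changes therefore depend on the scaling, as for CYTB at -0.07 in Geriatric versus Old and ND1 at 0.19 in Old versus Young. In limma an unadjusted p under 0.05 was reached by 0 of 6 in Old versus Young (16.5% of all probes). In Geriatric versus Young (20.4% of all probes) COX1 reached it (-0.43, unadjusted p = 0.0293, adjusted p = 0.194). In Geriatric versus Old 2 of 6 reached it, where 34.2% of all probes did. They were ND1 (-0.58, unadjusted p = 0.0193, adjusted p = 0.0805) and COX1 (-0.45, unadjusted p = 0.0229, adjusted p = 0.0895). In the difference between the age and strain contrasts 7775 of all 49930 probes reached it. Among the 6, ND1, ND2 and COX1 did so, with changes of -0.68, -0.59 and -0.51 and adjusted p-values of 0.286 or higher. Between SAMP8 and SAMR1 all 6 were above 0, from 0.08 to 0.33, with adjusted p-values of 0.655 or higher and 0 at an unadjusted p under 0.05.

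Markers of other cells moved with some of these groups. Endothelial markers (12 genes, all detected on every SAM array) had mean levels of -2.21 to -1.23 in Young, -1.87 to -0.52 in Old and -2.68 to -0.56 in Geriatric, but 1.28 to 2.46 in SAMR1 and -0.54 to 2.17 in SAMP8. Log2 of their summed signal was 3.59 to 4.24, 3.60 to 4.19, 4.19 to 4.32, 5.54 to 6.58 and 4.28 to 6.32 in the same order. Muscle fibre markers (18 genes), from cells rich in PGC-1alpha, lay at -2.18 to -1.78 in Young, -1.76 to -1.49 in Old, -2.55 to -2.24 in Geriatric, -2.06 to -1.92 in SAMR1 and -2.58 to -2.04 in SAMP8. Log2 of their summed signal, which the brightest markers dominate, was 5.08 to 5.36 in Young, 4.68 to 5.27 in Old, 4.69 to 4.89 in Geriatric, 4.45 to 4.56 in SAMR1 and 4.59 to 4.67 in SAMP8. In limma 0 of the 18 passed the adjusted threshold from Young to Old or from Young to Geriatric. At an unadjusted p under 0.05 there was 1 in each (16.5% and 20.4% of all probes), Atp2a1 at -0.53 (unadjusted p = 0.0226) and Myh2 at -2.64 (unadjusted p = 0.0483). The list median was 0.26 from Young to Old, with 13 of 18 above 0, and -0.36 from Young to Geriatric, with 6 of 18 above 0. By the mean level every Old array lay above every Young array and every Geriatric array below, whereas by the summed signal Old overlapped Young and Geriatric lay below it. In bulk RNA, more cells of a type and more RNA per cell cannot be told apart.

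Leukocyte markers (14 genes) lay at -2.20 to -1.52 in Young, -2.22 to -0.95 in Old, -2.75 to -2.37 in Geriatric, -2.77 to -2.71 in SAMR1 and -2.66 to -2.37 in SAMP8. Mesenchymal and adipocyte markers (10 of 12 tested) lay between -0.76 and -0.19 on the C57BL/6 arrays and between -0.09 and 0.43 on the SAM arrays. Satellite cell markers (16 genes) lay at 2.39 to 2.74 in Old and 2.63 to 3.08 in the other groups. The mean of the smooth muscle and pericyte markers (10 genes) was -0.22 to 0.07 in Young, -0.12 to 0.22 in Old, -0.66 to -0.04 in Geriatric, 0.86 to 1.12 in SAMR1 and 0.42 to 0.97 in SAMP8. Log2 of its summed signal was 7.58 to 7.80, 7.60 to 7.81, 6.94 to 7.06, 7.18 to 7.43 and 7.24 to 8.01 in the same order. Within that list Pdgfrb, a receptor of mural cells, rose from Young to Old by 2.45 (adjusted p = 0.00725) and from Young to Geriatric by 2.66 (0.00259), while Abcc9, another mural marker, changed by -2.70 (0.0134) and -2.94 (0.00543), calls lost without Old 1 and without Geriatric 1. Among the mesenchymal markers Thy1 changed by -3.04 from Young to Geriatric (adjusted p = 0.0123; -2.08 and not past the threshold without Geriatric 3), and Dpt rose by 1.48 (0.0243), a call lost for 4 of the 14 arrays left out. The part of these cells in the Ppargc1a result was not tested.

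**Figure D5:**
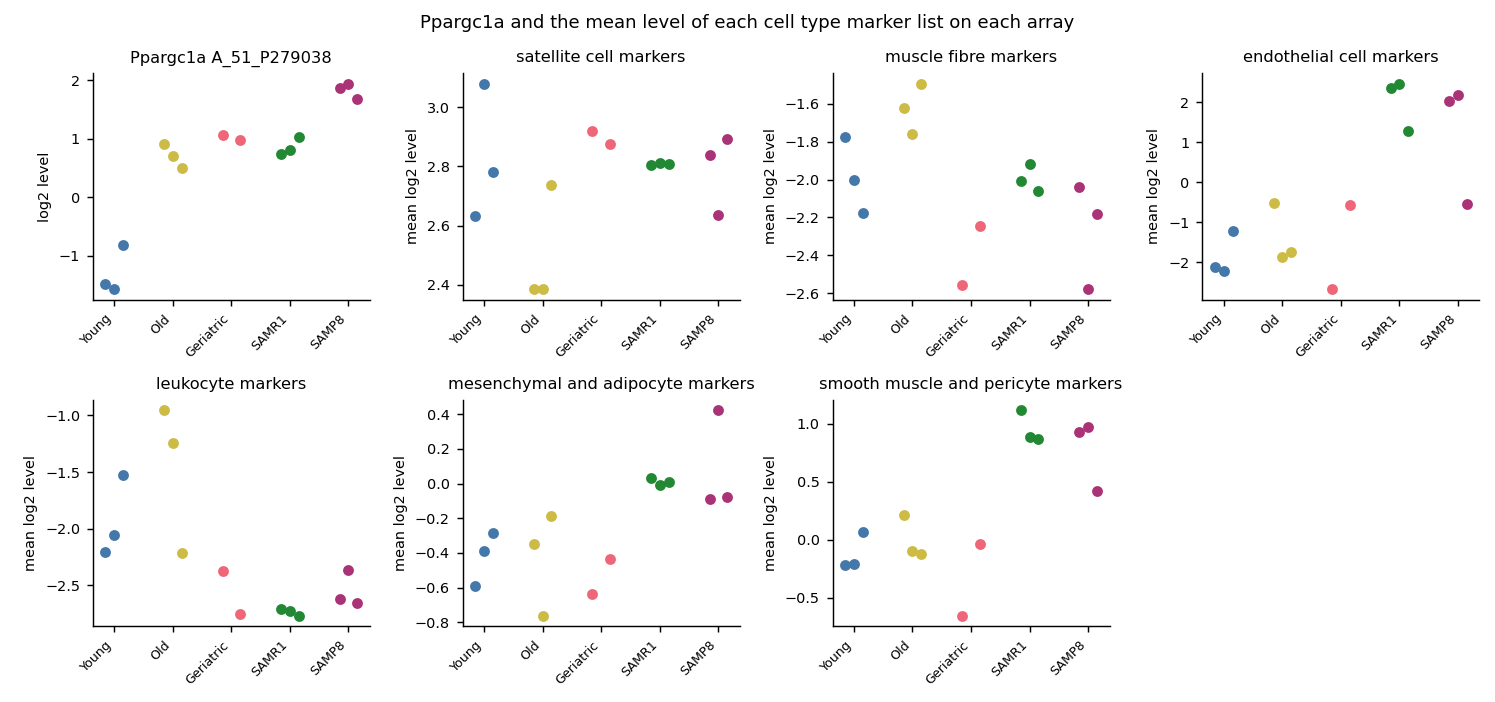
Level of Ppargc1a A_51_P279038 (first panel, log2) and mean level of each marker list (other panels, log2) on each array, by group. Endothelial markers are high on the SAMR1 arrays (1.28 to 2.46) and low on the C57BL/6 arrays, and muscle fibre markers are higher in Old (-1.76 to -1.49) and lower in Geriatric (-2.55 to -2.24) than in Young (-2.18 to -1.78).

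The genes whose level followed a member most closely over the 14 arrays were found among 18748 genes with a symbol, by Pearson's r, as a description. For Ppargc1a A_51_P279038 they were Pdgfrb (r = 0.952), Cish, a cytokine-induced SH2 protein (0.938), and Anxa1, annexin A1 (0.929). Esrra was followed by Nup160 (0.969), Skiv2l2 (0.963) and Dctn4 (0.961), and Gabpa A_51_P364984 by 8430406I07Rik (0.933), Ctdsp2 (0.917) and Smek2 (0.900). For Nrf1 A_52_P376269 they were Rtf1 (0.882), B9d2 (0.879) and Coasy (0.865), and for Tfam A_55_P2026445 Phyhd1 (0.870), Atp6v1c1 (0.867) and Trpt1 (0.866). Ppargc1b was followed by Fam82a2 (0.895), 6720463M24Rik (0.874) and Etv3 (0.835), Ppara A_55_P2055854 by Kcnh6 (0.902), Mpg (0.894) and Lzts1 (0.891), and Ppard by Vps4a (0.821), Colec12 (0.817) and Fam188a (0.811). No member was among the 3 nearest genes of another member. The arrays share their groups, so these correlations carry the group differences described above.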

How the data were processed

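RNA of sorted satellite cells, amplified by a whole-transcriptome protocol for small cell numbers per the labels' protocols, was hybridised in the Cy3 channel. Per the file headers the authors extracted signal intensity with Agilent Feature Extraction 10.7.3.1, whose processed signal is background-subtracted, on 2 slides scanned on the same day. The authors' deposited value table holds log2 values of unstated normalization, and it served as an alternative. Processed signals were taken to log2, outlier spots were dropped, spots of a probe were averaged and the 75th percentile of each array was subtracted. Of 55681 probes, 49930 were kept, those detected above background on 2 or more arrays within some group. limma 3.58.1 (R 4.3.3) was fitted to all 14 arrays with 5 groups, p-values were adjusted by Benjamini-Hochberg over all kept probes, and the threshold was 0.05. The number of arrays limits the precision. The labels call the arrays biological replicates, and the arrays within Young, within Old and within Geriatric are not all of the same age. The labels do not say whether an array was 1 mouse or a pool, and p-values measure the spread between these arrays. The scripts were tested on simulated data, with 200 of 49930 probes changed in Old. In Old versus Young the fit recovered 7% of changes of 1 log2 unit and 48% of changes of 2, with 0 false calls. A probe that did not pass may therefore still have changed. The members and gene lists were chosen with earlier results of these data known. Named genes are every member probe, up to 3 list genes by smallest p among those that passed in a comparison (or the 1 nearest where none did), and the 3 genes most like each member. Alternatives covered background, scaling, filter, slide, replicate block, groups in the fit, deposited values and each array left out.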

Additional observations from a re-analysis of the deposited data

Results flagged for a closer look

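Among the members and the genes of the pathway and marker lists, 4 genes, none of them a member, had an effect of age (Geriatric minus Young) that differed from that of strain (SAMP8 minus SAMR1) by limma's test of the difference, which called 296 of all 19009 genes with a symbol. Acot1, a PPAR target, differed by 2.09 ± 0.39 (SE; adjusted p = 0.0222), with 1.73 for age and -0.36 for strain. Pdgfrb differed by 2.24 (adjusted p = 0.0436; 2.66 and 0.41) and Abcc9 by -4.80 (adjusted p = 0.00312; -2.94 and 1.86), both mural cell markers. Myod1, the myogenic transcription factor, differed by -1.26 (adjusted p = 0.0365; -0.36 and 0.90). With 1 array left out the call was lost for 12 of the 14 arrays in Pdgfrb, 12 in Myod1, 5 in Acot1 and 0 in Abcc9, and over all 24 settings it was lost in 19, 16, 6 and 1. The age side of each crosses the division of the arrays by Xist, and its part in them was not tested.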

How the results depend on the processing

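Over 1947 recomputed member changes, 0 reversed a call, 19 lost and 3 gained one; the 3 gained were the Ppargc1a age-minus-strain difference with normexp (1.26, adjusted p = 0.0458), median scaling (1.43, 0.0444) and without Young replicate 3 (1.59, 0.0403). Ppargc1a passed whichever array was left out (1.86 to 2.24 in Old versus Young, 2.18 to 2.55 in Geriatric versus Young) and was not past the threshold within slides (1.86 and 2.29, then 2.597) or with only the groups compared (2.00 and 2.32), where fewer arrays estimate the spread. In Geriatric versus Old, Gabpa A_52_P152283 was not past it with normexp (0.47), within slide 2 (1.67) or with only those groups (1.82), nor Esrra within slide 2 (0.98), with the replicate block (1.03) or with only those groups (1.03); with 1 array left out they were 1.51 to 2.28 and 0.79 to 1.32.

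All probes past the threshold in Old versus Young numbered 618, and 1375 with normexp, 968 with the authors' values, 0 and 0 within slides (7199 and 4035 at an unadjusted p under 0.05), 294 with the replicate block, 51 with only those groups, and 134 to 936 with 1 array left out (134 without Old 1, 169 without Young 1, 345, 388 and 395 without SAMR1 1, 2 and 3, 936 without Old 3). Geriatric versus Young went from 1768 to 1080 with slide as a block, 0 within slide 2 (4503 unadjusted), 1125 with the replicate block, 560 with only those groups, and 560 to 1993 (834 without Young 3, 795 without Geriatric 1, 560 without Geriatric 3). Geriatric versus Old went from 8981 to 13475 with normexp, 2080 within slide 2, 3959 with only those groups, and 2668 to 9993 (5052 and 5656 without Old 1 and 2, 4779 and 2668 without Geriatric 1 and 3). SAMP8 versus SAMR1 went from 210 to 357 with normexp, 0 and 0 within slides (6545 and 2595 unadjusted), 69 with only those groups, and 106 to 300 (118, 106 and 126 without SAMR1 1, 2 and 3). The age-minus-strain difference went from 784 to 1238 with normexp, 0 within slide 2 (3770 unadjusted), 471 with the replicate block, and 348 to 1079 (422 without Young 3, 477 and 348 without Geriatric 1 and 3, 449, 437 and 492 without SAMR1 1, 2 and 3).

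Pathway genes past the threshold in Old versus Young were 0 with median scaling, without the filter, within both slides, with the replicate block and with only those groups, 2 with slide as a block, and 0 to 1 with 1 array left out. In Geriatric versus Young they were 3 with normexp, median scaling and the authors' values, 2 with quantile normalization and the stricter filter, 0 within slide 2 and with only those groups, and 0 to 2 with 1 array left out. In Geriatric versus Old they were 29 with normexp and the authors' values, 31 with median scaling, 0 within slide 2, 8 with the replicate block, 2 with only those groups, and 3 to 28. For the difference they were 0 within slide 2 and 0 to 2.

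Scaling moved the share of higher calls: in Old versus Young from 83.5% to 65.4% (quantile), 71.6% (median) and 73.1% (authors' values), in Geriatric versus Young from 38.2% to 53.2% (authors' values), in Geriatric versus Old from 29.6% to 48.2%, 49.99% and 47.3%, in SAMP8 versus SAMR1 from 49.5% to 59.7% (normexp), and for the difference from 32.7% to 48.9% (authors' values). Median scaling moved the median of all probes from 0.07 to -0.15 in Old versus Young and from -0.18 to 0.11 in Geriatric versus Old. The deviations of same-numbered arrays of different groups correlated at r of -0.23 to 0.17 over 26 pairs, 4 above 0.1. Those of differently numbered arrays correlated at -0.17 to 0.17 over 52 pairs, 8 above 0.1. With so few arrays per group, this does not settle whether the numbers pair the arrays. Dim probes limit Gabpa A_52_P152283, Ppargc1a A_55_P2011702, Ppara A_55_P2071596, Esrrg, Acot2 and Mylpf. Within a slide some groups have 1 array, taken to vary like the others. The cause of these differences was not tested.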
